A study of Mus musculus with 6 samples.

Results

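The AP-1 and Egr immediate early factors are a set of 10 mouse genes, the Fos family (Fos, Fosb, Fosl1 and Fosl2), the Jun family (Jun, Junb and Jund) and the Egr factors Egr1, Egr2 and Egr3. All array probe sets whose platform annotation gives one of these symbols alone were taken, which gave 16 of the 45037 probe sets tested and 10 of 18193 genes. Fos, Fosb, Junb and Egr1 have 1 probe set each, and the other 6 genes have 2. The cells were MIN6, a line from a mouse insulinoma that keeps many beta cell traits. Hlxb9 siRNA (3 arrays), directed at the homeobox factor gene Hlxb9 (Mnx1), was compared with a scrambled negative control siRNA (3 arrays). Both groups were transfected in the same way, by nucleofection and a lipid reagent, and total RNA was taken 72 hours later. RNA went onto arrays only where a western blot showed a knockdown of Hlxb9 protein above 75%, the labels call the cells sorted without naming a gate, and no acute stimulus is named.

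Fos and Jun proteins carry a basic leucine zipper through which they pair, Fos members only with partners such as Jun members and Jun members also with one another, and the pair, called AP-1, binds DNA at the TPA response element. Egr proteins bind GC-rich elements through zinc fingers. Many of these genes are switched on within minutes by growth factors, calcium or cyclic AMP, through serum response factor with Ets cofactors at CArG boxes and through CREB at cyclic AMP response elements, and their messages decay quickly. In beta cells glucose and depolarisation are known stimuli, and Egr1 is known to act on the Pdx1 promoter. Jund is the exception among the Jun genes, being expressed steadily in many resting cells, and its protein binds menin, the tumour suppressor of endocrine tumours.

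The 4 windows below, taken from 11 windows of 7 members, show letters that match known kinds of start-site element. They are RefSeq sequences of build GRCm38.p6, each 300 bases long, from 250 before to 50 after an annotated start. Capitals mark matches on either strand to the motifs searched, which were TGACGTCA (the full cyclic AMP response element), TGACG (its core, which every full element contains), TGANTCA (the AP-1 element), TGACATCA (the variant known from the Jun promoter), GCGNGGGCG (the Egr element) and the CArG box by its name.
Fos, chr12:85473640-85473939, plus strand: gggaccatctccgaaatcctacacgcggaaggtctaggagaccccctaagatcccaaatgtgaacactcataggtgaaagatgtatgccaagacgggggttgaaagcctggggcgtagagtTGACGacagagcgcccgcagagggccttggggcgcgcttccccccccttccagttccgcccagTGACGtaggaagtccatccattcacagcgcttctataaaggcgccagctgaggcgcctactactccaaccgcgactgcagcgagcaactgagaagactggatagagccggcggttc
Fosl2, chr5:32136222-32136521, plus strand: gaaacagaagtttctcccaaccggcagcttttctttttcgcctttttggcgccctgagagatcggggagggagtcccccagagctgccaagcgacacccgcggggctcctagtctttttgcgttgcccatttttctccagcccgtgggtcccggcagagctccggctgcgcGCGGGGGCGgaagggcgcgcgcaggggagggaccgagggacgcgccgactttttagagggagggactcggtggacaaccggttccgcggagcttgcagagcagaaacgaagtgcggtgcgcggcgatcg
Jun, chr4:95052173-95052472, minus strand: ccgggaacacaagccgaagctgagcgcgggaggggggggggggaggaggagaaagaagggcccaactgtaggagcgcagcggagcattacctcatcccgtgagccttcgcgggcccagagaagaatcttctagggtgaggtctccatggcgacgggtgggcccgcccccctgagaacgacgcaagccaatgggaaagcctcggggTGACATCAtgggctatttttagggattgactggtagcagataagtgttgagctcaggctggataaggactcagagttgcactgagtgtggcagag
Egr2, chr10:67537619-67537918, plus strand: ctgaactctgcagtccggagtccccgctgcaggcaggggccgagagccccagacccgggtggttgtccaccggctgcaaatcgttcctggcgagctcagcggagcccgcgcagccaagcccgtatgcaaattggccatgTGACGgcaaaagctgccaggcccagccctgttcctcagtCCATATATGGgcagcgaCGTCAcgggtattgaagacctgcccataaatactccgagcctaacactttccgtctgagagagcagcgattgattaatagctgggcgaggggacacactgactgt

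Fos, the founding member of its family, holds TGACG at -129 and -66, counted from the annotated start to the first base of the match. Fosl2 holds GCGGGGGCG at -79, and Jun holds TGACATCA at -45. Egr2 holds the CArG box CCATATATGG at -72 in this window, with TGACG at -111 and its reverse complement at -55. Of 32851 windows of the same length, 20.8% hold TGACG, 5.55% the Egr element, 3.62% TGACATCA and 1.63% a CArG box. TGANTCA (7.81% of windows) and TGACGTCA (1.79%) had no match in any window of Fos, Fosb, Fosl2, Jun, Junb, Jund or Egr2. The Jund window and another window of Egr2 held no match to any of the motifs. No window of Egr1, Egr3 or Fosl1 was searched. A match describes letters, and the arrays measured transcripts and no binding.

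Values are log2 RMA signals, so a difference of 1 is a 2-fold change. Control replicate 3 stood apart, at 68.2 on the first principal component (51.0% of the variance) against -21.7 to -3.40 for the other arrays. Signal of Gapdh at the 3' end was above that at the 5' end by 2.13 log2 there and by 0.65 to 0.78 elsewhere, and differences of the members and of the genes named from the lists are therefore given with and without it. Mnx1 transcript averaged 7.41 ± 0.13 after Hlxb9 siRNA and 7.70 ± 0.17 after control siRNA (SD, n = 3), and this difference did not pass (limma adjusted p = 0.659). All 10 measured beta cell markers, from Ins2 to Pdx1, lay above the median of all probe set means, which is 5.16, whereas 0 of 5 acinar and 0 of 5 endothelial markers did. One fibroblast marker of 7 and 1 leukocyte marker of 8 did so too. Of 3 measured alpha cell markers 2 lay above it, with Gcg, the glucagon gene, at 12.87 after Hlxb9 siRNA and 13.00 after control siRNA, a difference of -0.12 log2. Fewer transcribing cells and less RNA per cell cannot be told apart in such bulk samples.

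None of the 16 probe sets passed limma's threshold, an adjusted p of 0.05 over all probe sets, where 0% of all 45037 passed (members' adjusted p from 0.645 to 0.9997). Differences, Hlxb9 siRNA minus control siRNA, were positive for 9 probe sets and negative for 7, against 51% positive over all probe sets. Centring each array on its median made it 4 positive and 12 negative, against 39.1% positive over all, as it took the median of all to -0.05 log2, and repeating quantile normalization gave the same 4 and 12 against 49.9%. The members' median was 0.00065 log2, against 0.0041 over all probe sets. At an unadjusted limma p of 0.05 there were 3 member probe sets, 1 higher (1 of Fosl1) and 2 lower (the other of Fosl1 and 1 of Egr3). That is 18.8% of the members, against 7.62% of all probe sets (3.86% higher and 3.76% lower). Groups did not overlap for 3 member probe sets, 2 higher and 1 lower, again 18.8%, against 15.6% of all (8.27% higher and 7.29% lower).

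**Figure D1:**
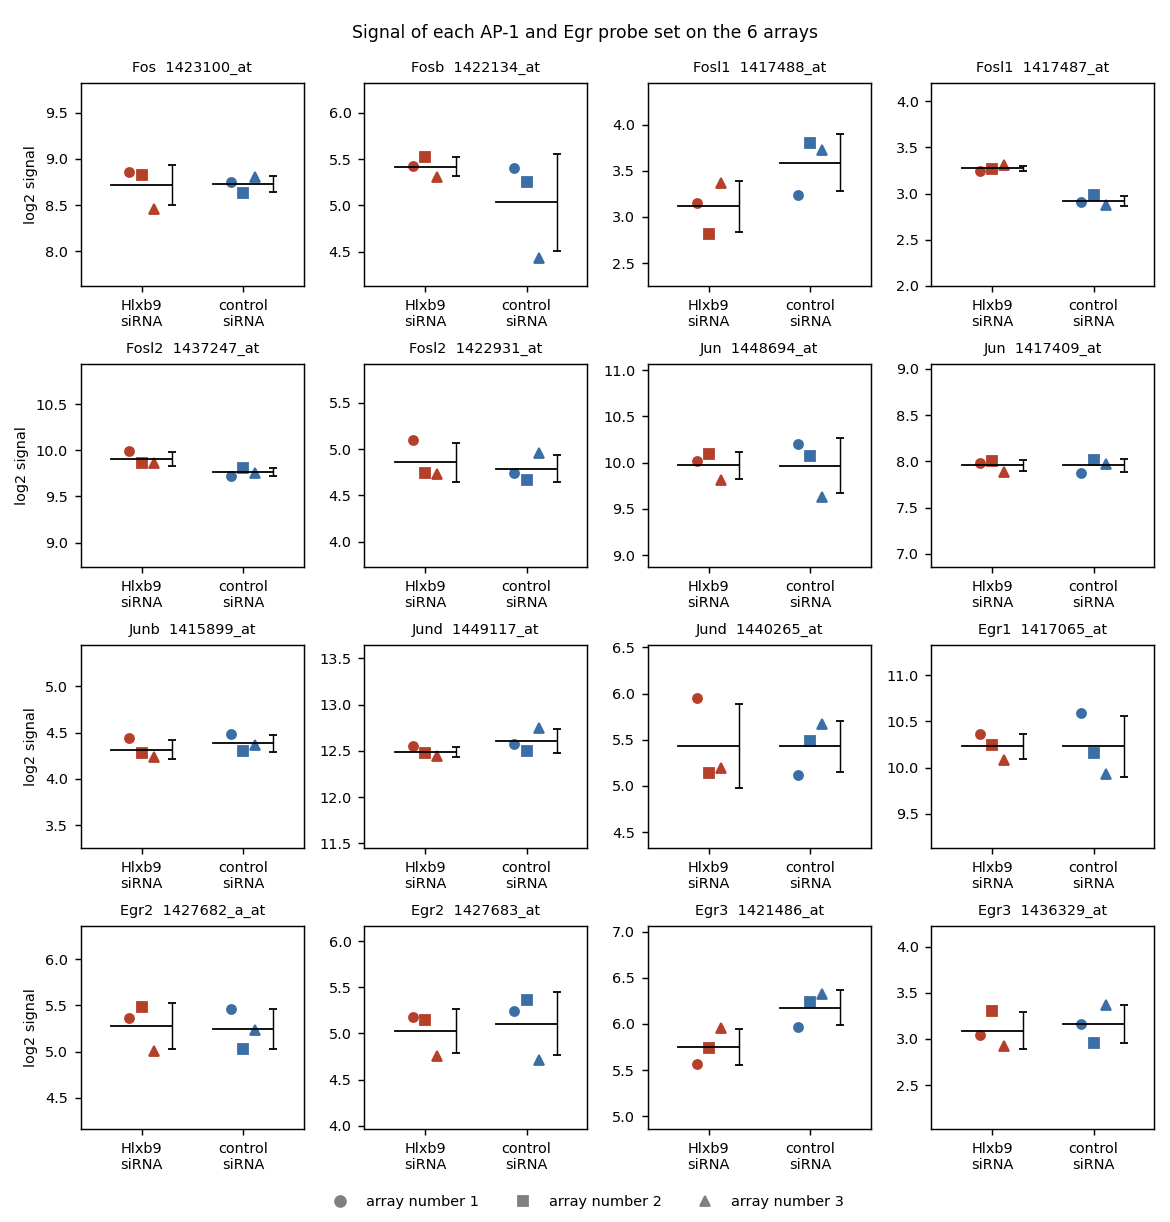
Log2 signal (vertical axis, each panel spanning the same number of log2 units) of the 16 probe sets on 6 arrays, Hlxb9 siRNA at left in each panel and control siRNA at right, with the symbol giving the array number, the line the mean and the bar the SD. The probe sets 1421486_at of Egr3, 1417487_at of Fosl1 and, by a smaller gap, 1437247_at of Fosl2 separate the groups, and Fosb has a single low point, control array number 3 at 4.43.

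Fos, whose protein is the classic Jun partner, read 8.86, 8.83 and 8.46 on the Hlxb9 siRNA arrays, against 8.75, 8.63 and 8.80 on the control arrays. The groups overlapped, with Hlxb9 siRNA replicate 3 the lowest of all and replicates 1 and 2 the highest. Its difference was -0.01 ± 0.13 log2 (SE), with a 95% interval from -0.32 to 0.30, that is from -20.1% to 23.2% (limma adjusted p = 0.986). Without control replicate 3 the difference was 0.03, and without both arrays numbered 3, a setting chosen after the data were seen, it was 0.15.

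Fosb, a Fos relative with a strong activating domain, read 5.43, 5.52 and 5.31 after Hlxb9 siRNA, against 5.41, 5.25 and 4.43 after control siRNA. Its mean was thus the most raised of the members, by 0.39 ± 0.24 log2 (SE), but 1 control array made most of it. Without control replicate 3, the array with the high 3' to 5' ratio, the difference was 0.09. Neither value passed (limma adjusted p = 0.705, and 0.818 without that array).

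Fosl1, which encodes Fra-1, a Fos protein without the C-terminal activating domain of Fos, gave opposite answers on its 2 probe sets. Probe set 1417487_at read 3.24, 3.27 and 3.30 after Hlxb9 siRNA, against 2.91, 2.98 and 2.88 after control siRNA, so the groups did not overlap. The difference of 0.35 ± 0.09 log2 (SE, limma adjusted p = 0.645) was 0.33 without control replicate 3. Probe set 1417488_at read 3.15, 2.82 and 3.37 after Hlxb9 siRNA, against 3.23, 3.80 and 3.73 after control siRNA. Its groups overlapped, since Hlxb9 siRNA replicate 3 lay above control replicate 1, and its difference was -0.47 ± 0.20 (limma adjusted p = 0.653), or -0.40 without control replicate 3. The platform annotation ties both to the same sequence record. Both are dim, brighter than 15.2% and 22.4% of all probe sets, and their mean differed by -0.06. An offset of 32 on the linear scale, which damps dim signals, left 0.07 and -0.12.

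Fosl2, encoding Fra-2, was steady between arrays on probe set 1437247_at. It read 9.996, 9.86 and 9.86 after Hlxb9 siRNA, against 9.73, 9.81 and 9.76 after control siRNA, so the groups did not overlap. All 3 pairs of equal array number were higher, by 0.27, 0.05 and 0.10 log2. The difference of 0.14 ± 0.10 (SE) is a level 10.3% higher, with a 95% interval from -5.88% to 29.3%, and fell short of the threshold (limma adjusted p = 0.730). The exact permutation test, two-sided, gave p = 0.1, the smallest that 3 against 3 arrays allow. It stood at 0.14 without control replicate 3. The other probe set, 1422931_at, brighter than 46.8% of all, differed by 0.07 ± 0.14, or 0.15 without control replicate 3, with Hlxb9 siRNA replicate 1 highest at 5.10.

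Jun, encoding c-Jun, the main partner of Fos, had group means close together on both probe sets. On 1448694_at it read 10.01, 10.09 and 9.81 after Hlxb9 siRNA, against 10.20, 10.07 and 9.63 after control siRNA, and on both sides the array numbered 3 was the lowest. The difference was 0.0053 ± 0.17 log2 (SE), and -0.16 without control replicate 3, with neither passing (limma adjusted p = 0.996 and 0.671). On 1417409_at the 3 Hlxb9 siRNA arrays read 7.98, 8.004 and 7.88, against 7.88, 8.01 and 7.98 for the control arrays. That probe set's difference had a 95% interval from -0.23 to 0.23, that is from -14.8% to 17.4%, and was 0.011 without control replicate 3.

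Junb, a Jun member that often restrains c-Jun, has 1 probe set, below the median of all. It read 4.44, 4.28 and 4.23 after Hlxb9 siRNA, against 4.49, 4.30 and 4.37 after control siRNA. The groups overlapped through Hlxb9 siRNA replicate 1 alone, as replicates 2 and 3 lay below every control array. Within the pairs of equal array number the differences were -0.05, -0.03 and -0.13 log2. The mean difference was -0.07 ± 0.11 log2 (SE, limma adjusted p = 0.880), or -0.08 without control replicate 3.

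Jund is read by 1449117_at, brighter than 98.7% of all probe sets. It read 12.55, 12.48 and 12.45 after Hlxb9 siRNA, against 12.58, 12.50 and 12.74 after control siRNA, each array lower than its control of equal number. Control replicate 3 was the highest value and the groups overlapped. The difference of -0.12 ± 0.11 log2 (SE) became -0.05 without that array (limma adjusted p = 0.793, and 0.897 without it). On 1440265_at, Hlxb9 siRNA replicate 1 stood alone at 5.95, with 5.14 and 5.19 beside it, against 5.12, 5.49 and 5.67 for the control arrays. The difference there was 0.0014 ± 0.24, the widest interval of the Jun probe sets, from -0.55 to 0.56, and 0.12 without control replicate 3.

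**Figure D2:**
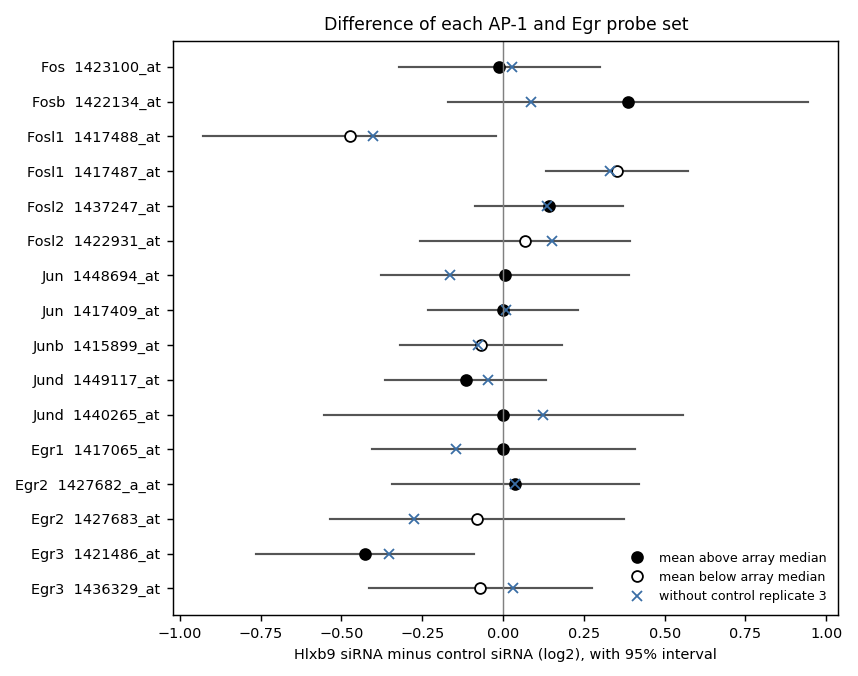
Difference in log2 signal, Hlxb9 siRNA minus control siRNA (horizontal axis), for the 16 probe sets, with limma's 95% interval as a line. Filled circles are probe sets above the median of all probe set means, open circles those below it, and crosses the difference without control replicate 3. Intervals of 13 probe sets span 0, and those of both Fosl1 probe sets and of Egr3 1421486_at do not.

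Egr1, the best known of the Egr factors, read 10.36, 10.24 and 10.09 after Hlxb9 siRNA, against 10.59, 10.16 and 9.93 after control siRNA. The control arrays enclosed the Hlxb9 siRNA arrays on both sides. Its difference was 0.0011 ± 0.18 log2 (SE), with a 95% interval from -0.41 to 0.41 (limma adjusted p = 0.999), and -0.15 without control replicate 3, the lowest array. The spread was wider among control arrays (SD 0.33) than among Hlxb9 siRNA arrays (SD 0.14), which was not tested.

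Egr2, known for its part in hindbrain patterning and myelination, has probe sets close to the median of all. On 1427682_a_at it read 5.36, 5.48 and 5.00 after Hlxb9 siRNA, against 5.46, 5.03 and 5.24 after control siRNA, a difference of 0.04 ± 0.16 log2 (SE). On 1427683_at, tied to the same sequence record, it read 5.18, 5.15 and 4.75 after Hlxb9 siRNA, against 5.24, 5.36 and 4.72 after control siRNA, a difference of -0.08 ± 0.20. Groups overlapped on both, and the signs differed (limma adjusted p = 0.963 and 0.928). Without control replicate 3 the first stood at 0.035 and the second at -0.28, still short of the threshold (limma adjusted p = 0.586).

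Egr3, which Egr1 can induce and which acts in muscle spindles and lymphocytes, was the member whose brighter probe set read lower on each Hlxb9 siRNA array than on any control array. Probe set 1421486_at read 5.56, 5.74 and 5.95 after Hlxb9 siRNA, against 5.97, 6.24 and 6.33 after control siRNA. The groups did not overlap, though Hlxb9 siRNA replicate 3 lay only just under control replicate 1. Within the pairs of equal array number the differences were -0.40, -0.50 and -0.37 log2. The mean difference of -0.43 ± 0.15 (SE) corresponds to -25.6% in Hlxb9 siRNA cells, with a 95% interval from -41.1% to -6.03%. It fell short of the threshold over all probe sets (limma adjusted p = 0.645), and the exact permutation test gave p = 0.1. Without control replicate 3 it was -0.35 (limma adjusted p = 0.521). The other probe set, 1436329_at, is dim, brighter than 16.0% of all, and differed by -0.07 ± 0.15 with overlapping groups, or by 0.031 without control replicate 3.

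With limma's array weights, which give arrays near their group mean more influence, 2 members passed, both lower after Hlxb9 siRNA. They were Egr3 1421486_at, at -0.46 (adjusted p = 0.0479), and the dim Fosl1 1417488_at, at -0.76 (adjusted p = 0.0469), where 1.23% of all probe sets passed as lower and 2.51% in either direction. The other Fosl1 probe set, 1417487_at, was higher by 0.30 with array weights and fell just short (limma adjusted p = 0.0526). These weights were 2.91 for Hlxb9 siRNA replicate 2, 4.46 for control replicate 2 and 0.792 or lower for the other arrays. With any 1 of the 6 arrays removed, a check chosen after the data were seen, the weighted fit called 0 of the 16 and 0 of all 45037. Taking the array number as a block gave 3 members at an unadjusted p of 0.05, against 9.31% of all probe sets, and 0 past the threshold (limma smallest adjusted p of the members = 0.487).

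The order of values by array number was counted for the members and for all probe sets, without a test. For 4 probe sets, Fosb, Jun 1448694_at, Egr1 and Egr2 1427683_at, the array numbered 3 was the lowest within both groups, 25.0% of the members against 15% of all probe sets. This count was made after the values were seen, and it includes control replicate 3, the array with the high 3' to 5' ratio of Gapdh. In Fosb that array read 4.43, against 5.31 for Hlxb9 siRNA replicate 3. In Egr1 the arrays numbered 3 lay 0.28 log2 (Hlxb9 siRNA) and 0.65 log2 (control siRNA) below those numbered 1. Egr3 1421486_at ran the other way, its arrays numbered 3 being the highest within both groups. The 3 differences within pairs had 1 sign for 7 of 16 probe sets, 43.8%, against 34% of all.

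Genes with the profile closest to a member over the 6 arrays were found by the root mean square distance between log2 values centred on each probe set's mean. Candidates were the 19841 probe sets with 1 symbol and a mean above the median, members left out. Closest to Egr1 was Errfi1, the feedback inhibitor of the EGF receptor known as MIG-6, at a distance of 0.021 log2, against a median of 0.25 for all candidates. Errfi1 read 11.83, 11.76 and 11.59 after Hlxb9 siRNA, against 12.11, 11.68 and 11.40 after control siRNA. It kept the same order of arrays as Egr1, with control replicate 1 highest and control replicate 3 lowest. Next came Ak5, an adenylate kinase, and B3glct, a glucosyltransferase, both at 0.041. Jun 1448694_at was closest to Gk5, Tmem214 and Dclk1, the doublecortin-like kinase, at 0.016, 0.016 and 0.030, against a median of 0.24. Fos was closest to the sodium channel gene Scn8a, St7 and Bmf, a BH3-only gene of apoptosis, at 0.030, 0.031 and 0.033, against a median of 0.21. With 19841 candidates and 6 arrays some profiles lie close in any case, and these distances carry no test.

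**Figure D3:**
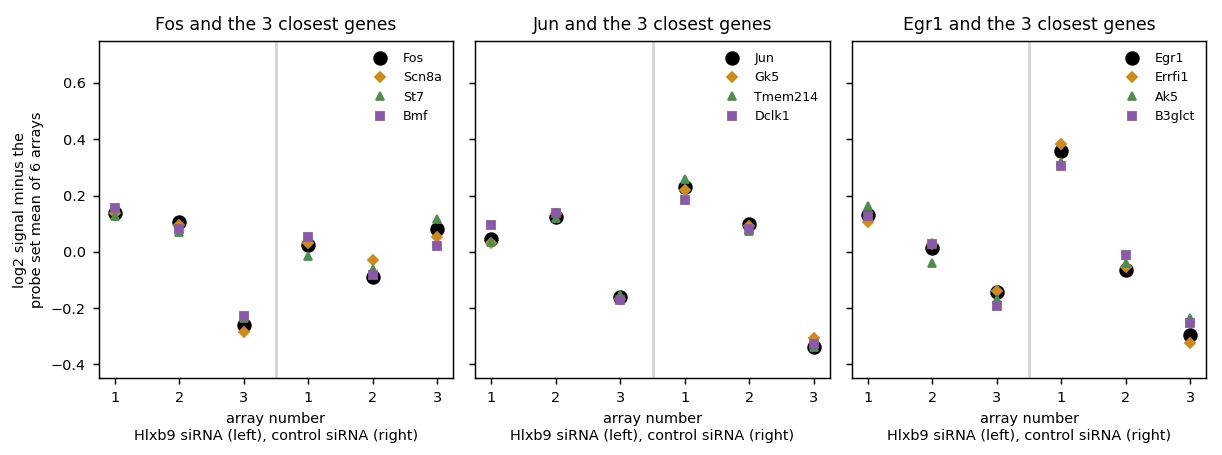
Log2 signal minus the probe set's own mean over 6 arrays (vertical axis) for Fos, Jun 1448694_at and Egr1, in black, each with its 3 closest genes in colour. Hlxb9 siRNA arrays 1 to 3 are at left of the grey line and control siRNA arrays 1 to 3 at right. Jun and Egr1 are lowest on the arrays numbered 3 in both groups, and Fos is lowest on Hlxb9 siRNA array 3 alone.

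Other immediate early genes leaned lower after Hlxb9 siRNA without any passing. Of 24 measured, 18 were lower and 6 higher (75.0% lower, against 49.4% of all genes), with a median difference of -0.10 log2, against 0.0023 over all genes. Only 19 of the 24 lay above the median of all probe set means, and with dim probe sets left out the median difference was -0.09. The dim genes Klf2, Myc, Npas4, Ccn1 and Ccn2 were all lower. Myc had the largest difference of the list (-0.62), with overlapping groups, but without control replicate 3 it was -0.15. After centring, 19 of the 24 were lower, against 61.6% of all genes, and without control replicate 3 also 19, against 43.3%. Limma's threshold was passed by 0 of them, and by 0% of all genes, while 1 higher and 4 lower had an unadjusted p under 0.05, shares to be set beside 4.21% and 3.74% of all genes. As a median over the list, centred on each gene's mean, the arrays stood at -0.033, -0.032 and -0.064 after Hlxb9 siRNA, against 0.023, 0.052 and 0.077 after control siRNA. Over all genes the same medians were 0.014, 0.0047 and -0.0050, against -0.041, -0.011 and 0.055. The 2 with the smallest p were antiproliferative relatives that went in opposite directions. Btg2, a growth arrest gene and p53 target, differed by 0.38 ± 0.12 log2 (SE) and by 0.15 on its other probe set. Btg1 differed by -0.39 ± 0.14, with its other probe sets from -0.0048 to 0.16 (limma adjusted p = 0.645 for both). Leaving out control replicate 3 gave 0.31 for Btg2 and -0.27 for Btg1. Egr4, the remaining Egr gene, was named after its value was seen. It averaged 5.17 after Hlxb9 siRNA and 5.56 after control siRNA, a difference of -0.39 with overlapping groups (limma adjusted p = 0.653), or -0.31 without control replicate 3.

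Of genes for leucine zipper proteins that pair or compete with Fos and Jun, 15 of 18 were lower (83.3%, against 49.4% of all genes). Their median was -0.08 log2. Without control replicate 3, 12 of 18 were lower, against 43.3% of all genes. Maff and Atf3, both lower over all arrays, are counted in this list and in the one before. Maff differed by -0.09, but by 0.08 without control replicate 3. Atf3, a stress-induced repressor that pairs with Jun proteins and stands in both lists, read 7.49, 7.72 and 7.46 after Hlxb9 siRNA, against 7.68, 8.01 and 7.91 after control siRNA. Only Hlxb9 siRNA replicate 2 reached into the control range, and the difference was -0.31 ± 0.13 (SE, limma adjusted p = 0.653). Creb1, which encodes the cyclic AMP responsive factor CREB, stood higher, at 10.12, 10.03 and 10.23 after Hlxb9 siRNA, against 9.99, 9.80 and 9.82 after control siRNA, with no overlap. Its difference of 0.26 ± 0.11 did not pass (limma adjusted p = 0.653), and its 5 other probe sets differed by 0.0087 to 0.28. Jdp2, a repressor that pairs with Jun, and Mafg had all Hlxb9 siRNA values below all controls, by -0.21 and -0.07, and were named after their values were seen. Groups thus did not overlap for 1 gene higher and 2 lower of the 18, against 15.6% of all probe sets. Atf3 stood at -0.28, Creb1 at 0.23, Jdp2 at -0.17 and Mafg at -0.10 without control replicate 3.

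Kinases, serum response factor and its cofactors were split, 8 higher and 8 lower of 16, and the median was -0.0021 log2, or 0.0019 without control replicate 3. After centring they were 6 higher and 10 lower. Rps6ka5, encoding the kinase MSK1 that phosphorylates CREB and histone H3, differed by -0.21 ± 0.11 (SE), with its other probe sets from -0.0095 to 0.31. Mapk14, encoding p38 alpha, differed by 0.19 ± 0.11, with its others from -0.42 to 0.05 (limma adjusted p = 0.684 and 0.695). Srf itself differed by -0.13. Without control replicate 3, Rps6ka5 stood at -0.25, Mapk14 at 0.16 and Srf at -0.04.

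Among Egr corepressors and factors that limit AP-1, 5 of 7 were higher and 2 lower, and the median was 0.08 log2. These were 4 higher and 3 lower without control replicate 3, and the median was 0.019. Nab2, a corepressor that binds Egr1, Egr2 and Egr3 and is itself an Egr target, was 1 of the 2 lower. It read 7.44, 7.33 and 6.96 after Hlxb9 siRNA, against 7.58, 7.52 and 7.66 after control siRNA. The groups did not overlap, and the difference of -0.35 ± 0.14 (SE) was -0.31 without control replicate 3 and did not pass (limma adjusted p = 0.653). Dusp6, the phosphatase that inactivates ERK in the cytoplasm, differed by -0.31 ± 0.16 and by -0.44 without control replicate 3 (limma adjusted p = 0.672).

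Genes known as AP-1 targets in other cell types were split 10 higher to 7 lower (8 to 9 after centring), the median being 0.04 log2, or 0.0015 without control replicate 3. At an unadjusted p of 0.05 there were 0 of 17, against 7.95% of all genes. Only 8 of the 17 lay above the median of all probe set means. The 2 with the smallest p were Il6, at 0.24 ± 0.13 (SE) on a probe set dim in both groups, and the intermediate filament gene Vim, at -0.50 ± 0.28 on an _x_at probe set, a suffix for probes that can bind related sequences (limma adjusted p = 0.683 and 0.684). The other Vim probe sets differed by -0.29 and -0.06. Il6 stood at 0.34 and Vim at -0.61 without control replicate 3. Vim read 5.57, 5.14 and 4.41 after Hlxb9 siRNA, against 5.74, 5.56 and 5.32 after control siRNA, the groups overlapping. Genes known as Egr targets were split 7 higher to 8 lower, the median being -0.08 log2, with 1 of 15, lower, at an unadjusted p of 0.05. The split was 4 to 11 after centring and 5 to 10 after repeated quantile normalization, and without control replicate 3 it was 8 to 7 with a median of 0.0062. Beside Nab2, Cdk5r1, the p35 activator of CDK5, differed by -0.22 ± 0.11 (limma adjusted p = 0.671), with its 3 other probe sets also lower, from -0.24 to -0.03. It stood at -0.26 without control replicate 3.

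**Figure D4:**
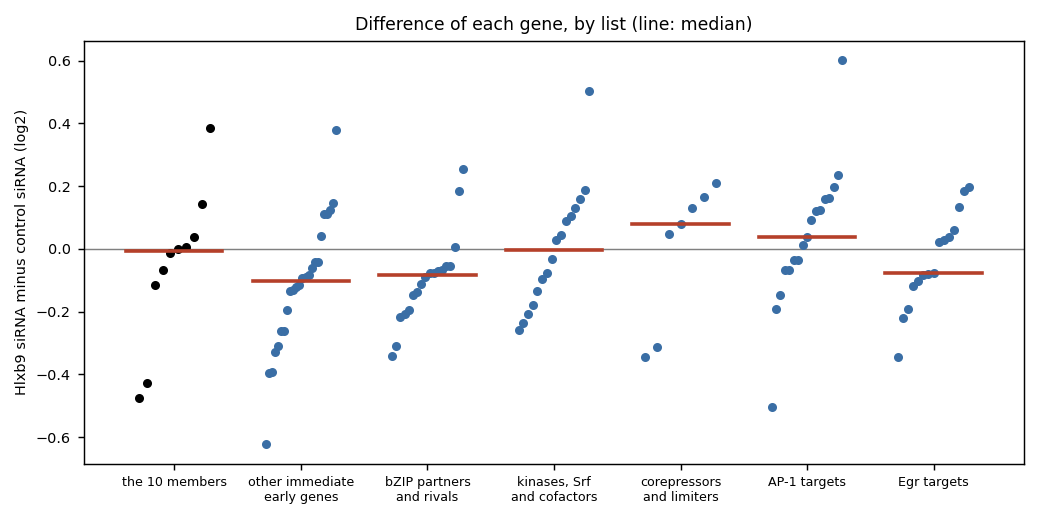
Difference in log2 signal, Hlxb9 siRNA minus control siRNA (vertical axis), of each gene on its brightest probe set, for the 10 members (black) and the 6 lists (blue), sorted within each, with the median as a red line. Medians lie between -0.10 for the other immediate early genes and 0.08 for the corepressors and limiting factors.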

How the data were processed

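The deposited values are log2 signals of 45101 probe sets of an Affymetrix mouse expression array on 6 arrays. The submitters' processing notes name RMA and Partek and give no version, and how RMA was set is not stated. Before the fit 64 control probe sets were dropped. Symbols came from the platform annotation (34945 probe sets with 1 symbol, 932 with several and 9160 unnamed here). For list genes the brightest probe set by mean was read, and all probe sets of the members are given.

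The fit was limma 3.58.1 (R 4.3.3, statmod 1.5.0), lmFit and eBayes with no covariate, two-sided, with Benjamini-Hochberg adjustment over 45037 probe sets. It was tested on simulated data, with added differences larger than any of the members', in probe sets of low spread. That test does not tell whether differences of the members' size would be detected. Errors of differences are moderated SE. Nothing says that arrays came from separate cultures, so p-values measure only the spread between these arrays. The members and the 6 lists (97 of 109 entries found by symbol or synonym) were chosen with earlier results of these data known. Named are all members, the 2 genes of each list with the smallest p, and the 3 genes closest in profile to Fos, Jun and Egr1. Deviations of arrays of equal number correlated at 0.155, 0.165 and 0.202, each above 0.1. Between control and Hlxb9 siRNA arrays of different numbers the highest correlation was 0.072. These correlations are weak, and the pairs by number are given on that basis, from the values alone. The main fit did not use the pairing, and only the replicate block did. Arrays have no read depth, and their number limits the precision. The alternatives tried were centring, repeated quantile normalization, an offset, a filter on dim probe sets, a variance trend, array weights, the block and leaving out arrays.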

Additional observations from a re-analysis of the deposited data

How the results depend on the processing

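At the threshold 0 of the 16 member probe sets passed in limma, 3 had an unadjusted p under 0.05 and 2 passed with array weights. Over all probe sets 0 passed, 3430 had an unadjusted p under 0.05 and 1132 passed with array weights. Both counts were 0 at an adjusted p of 0.1, under the other alternatives, including the replicate block, and without each array. Differences of Egr3 1421486_at kept their sign in all alternatives, from -0.53 to -0.28, as did those of both Fosl1 probe sets, Fosb and Fosl2 1437247_at. Several probe sets with differences near 0 did not, as given next, and the cause was not tested. The replicate block, with the pairing taken from the values, changed no call of the members. With array weights the sign turned for Fos 1423100_at (0.12), Jun 1448694_at (-0.039), Jun 1417409_at (-0.018), Jund 1440265_at (-0.16) and Egr3 1436329_at (0.19). After centring each array on its median the sign turned for Jun 1448694_at (-0.047), Jun 1417409_at (-0.052), Jund 1440265_at (-0.051), Egr1 1417065_at (-0.051) and Egr2 1427682_a_at (-0.014). After repeated quantile normalization the sign turned for Jun 1448694_at (-0.018), Jun 1417409_at (-0.058), Jund 1440265_at (-0.079), Egr1 1417065_at (-0.031) and Egr2 1427682_a_at (-0.019). Without both arrays numbered 3 the sign turned for Fos 1423100_at (0.15), Jun 1448694_at (-0.081), Egr1 1417065_at (-0.074) and Egr3 1436329_at (0.12). With the mean of its probe sets the sign turned for Egr2 (-0.021). With plain _at probe sets alone the sign turned for Egr2 (-0.080). Leaving out 1 array in turn also turned the sign of some, with differences of Fos 1423100_at from -0.083 to 0.12, Fosl2 1422931_at from -0.051 to 0.15, Jun 1448694_at from -0.16 to 0.12, Jun 1417409_at from -0.040 to 0.036, Jund 1440265_at from -0.26 to 0.15, Egr1 1417065_at from -0.15 to 0.18, Egr2 1427682_a_at from -0.070 to 0.18, Egr2 1427683_at from -0.28 to 0.057 and Egr3 1436329_at from -0.18 to 0.031. The median of the other immediate early genes, -0.10, was -0.052 (array weights), -0.16 (median centring), -0.072 (offset of 32 on the linear scale), -0.16 (repeated quantile normalization) and -0.065 (without both arrays numbered 3), and -0.15 to -0.050 with 1 array left out. The median of the kinases, serum response factor and cofactors that act on the members, -0.0021, was -0.054 (median centring). The median of the AP-1 target genes known from other cell types, 0.039, was 0.10 (dim probe sets left out), and 0.0015 to 0.11 with 1 array left out. The median of the Egr target genes known from other cell types, -0.076, was 0.048 (mean of the gene's probe sets) and 0.064 (without both arrays numbered 3), and -0.12 to 0.0062 with 1 array left out.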
